A study of Mus musculus with 13 samples.

Results

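The genes described here encode the channel proteins that set the electrical behaviour of skeletal muscle: the voltage-gated sodium, calcium and potassium channels with their accessory subunits, the other potassium channels, and the ClC family of chloride channels and exchangers. Members were the probes whose gene name on the array begins with Kcn, Scn followed by a digit, Clcn or Cacn and whose signal was flagged well above background on at least 6 of 13 arrays. The array held 222 such probes of 144 genes, of which 77 probes of 59 genes passed: 33 of 95 potassium, 8 of 14 sodium, 6 of 9 chloride and 12 of 26 calcium channel genes. They were read from a fit over all 17257 genes that passed the same filter.

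RNA of the gastrocnemius, a calf muscle, came from male C57BL/6J mice that all ate a purified low fat diet for 12 weeks. The study compared 6 wild-type mice with 7 UCP1 transgenic littermates, from the age of 12 weeks. UCP1 is the proton carrier of brown fat mitochondria, and the series title places its overexpression in skeletal muscle. The promoter that drives the transgene, and whether it is active in cells other than fibres, is not given in the sources used here. Each mouse was hybridised in Cy5 against a pool of samples in Cy3, so every value is a log2 ratio to that pool and every difference is transgenic minus wild type, on the log2 scale, where 1 is a doubling of signal. An array ratio compares 1 gene between mice and not 1 gene with another.

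Between 20643 and 24036 of 55681 probes were well above background per array. Ucp1 read -0.20 to 0.85 in transgenic muscle and -4.23 to -2.82 in 5 wild-type arrays, but 0.45 on the array labelled wild type 4, which goes against its label. Fgf21, a hormone gene that was 4.02 ± 0.17 (SE) higher in transgenic muscle, read -3.60 on that array, inside the range of the other wild-type arrays. Directions below rest on the labels, and for channel genes that passed the test the value without that array, called the doubted array, stands beside the difference. Probe positions are in the mouse build mm9.

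A muscle action potential begins when acetylcholine opens its receptor at the nerve ending. Sodium channels then carry the spike along the surface and the transverse tubules, potassium channels return the membrane to rest, and the chloride channel Clcn1 holds the resting potential steady. In the tubules the calcium channel Cacna1s acts as the voltage sensor that opens the release channel of the sarcoplasmic reticulum, the calcium store of the fibre. Disturbed sodium, chloride or calcium channels of muscle are known as causes of myotonia and periodic paralysis.

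Promoters are shown for 4 genes: Cacng7, the member with the lowest difference, and Kcnab1, Clcn4 and Clcn1, genes that fell and whose promoter held a motif that was searched. Each line gives the 250 bases before the start of transcription from RefSeq (build GRCm38.p6), 5′ to 3′ in the reading direction of the gene, with motif letters in capitals. The Kcnab1 promoter lies at chr3:65108764-65109013 on the plus strand and is 1 of 3 for this gene, the Clcn4 promoter at chr7:7299558-7299807 on the minus strand and is 1 of 2, the Clcn1 promoter at chr6:42286435-42286684 on the plus strand and the Cacng7 promoter at chr7:3332575-3332824 on the plus strand.
Kcnab1: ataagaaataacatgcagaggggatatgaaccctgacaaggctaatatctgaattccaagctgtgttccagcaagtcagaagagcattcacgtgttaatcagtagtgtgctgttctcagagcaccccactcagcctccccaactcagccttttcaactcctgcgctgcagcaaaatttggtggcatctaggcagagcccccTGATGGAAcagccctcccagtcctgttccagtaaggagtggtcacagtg
Clcn4: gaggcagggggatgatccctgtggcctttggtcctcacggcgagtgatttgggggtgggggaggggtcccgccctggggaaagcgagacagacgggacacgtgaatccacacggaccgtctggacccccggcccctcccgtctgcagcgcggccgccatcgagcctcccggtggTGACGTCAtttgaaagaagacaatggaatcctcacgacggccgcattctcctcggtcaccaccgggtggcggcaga
Clcn1: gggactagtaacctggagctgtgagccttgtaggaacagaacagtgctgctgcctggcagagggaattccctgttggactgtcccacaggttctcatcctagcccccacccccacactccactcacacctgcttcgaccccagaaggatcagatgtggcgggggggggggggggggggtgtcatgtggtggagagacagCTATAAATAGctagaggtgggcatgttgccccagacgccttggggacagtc
Cacng7: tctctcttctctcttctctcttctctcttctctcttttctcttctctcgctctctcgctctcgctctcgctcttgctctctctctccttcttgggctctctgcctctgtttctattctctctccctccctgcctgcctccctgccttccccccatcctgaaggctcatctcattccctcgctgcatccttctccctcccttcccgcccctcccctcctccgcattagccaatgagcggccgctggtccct

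The capitals in Kcnab1 mark TGATGNAA, the composite element read by ATF4 with C/EBP proteins, those in Clcn4 mark TGACGTCA, the cAMP response element, and those in Clcn1 mark a loose form of the MEF2 site, CTA and TAG with any 4 bases between them. Each was searched on both strands, and the motifs did not share letters. RefSeq promoters were matched for 41 of the 59 genes. TGATGNAA occurred in 1 of these 41 genes (2.44%), against 3.91% of all 27025 genes and 3.45% of their 32851 promoters. TGACGTCA occurred in 1 gene, against 1.77% of genes and 1.55% of promoters. The MEF2-like motif occurred in 2 genes (4.88%), Clcn1 and the leak channel Kcnk4, against 3.70% of genes and 3.20% of promoters. The bases of the 53 member promoters were 58.8% G or C at the median, against 52.4% over all promoters. A match describes the letters only, and none of the motifs was in the Cacng7 window.

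Of the 59 channel genes, 26 (44.1%) passed the threshold of 0.05 on the adjusted p of limma, against 33.0% of all genes tested. In transgenic muscle 11 were higher (18.6%, against 16.9% of all genes) and 15 lower (25.4%, against 16.1%), and the median over the 59 was -0.033, against -0.0010 over all genes. Differences of at least 1, a doubling or halving of signal, were seen in 6 of the 59 (10.2%, against 1.65% of all genes). The arrays of the groups did not overlap for 18 members (30.5%, against 14.7%), of which 12 were lower and 6 higher. Among these higher ones are Kcne1l, Kcnk5 and Kcnn3, whose brightest probes no wild-type array measured. Those probes passed the filter only through the transgenic group, which favoured a rise. The same holds for Kcnu1, also among these higher ones, measured on 2 wild-type and 7 transgenic arrays. Kcne1l and Kcnu1 are also among the genes with a difference of at least 1. All 26 that passed kept their direction within each of the 4 slides, on the third of which the doubted array was the only wild-type array. The slides hold the same arrays that gave the calls, so this is no independent support. The share over all called genes is not available here. Leaving out the array labelled wild type 4, 10 were higher and 15 lower, and Clcn7 was the one that no longer passed (32.6% of all genes passed in that fit).

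**Figure D1:**
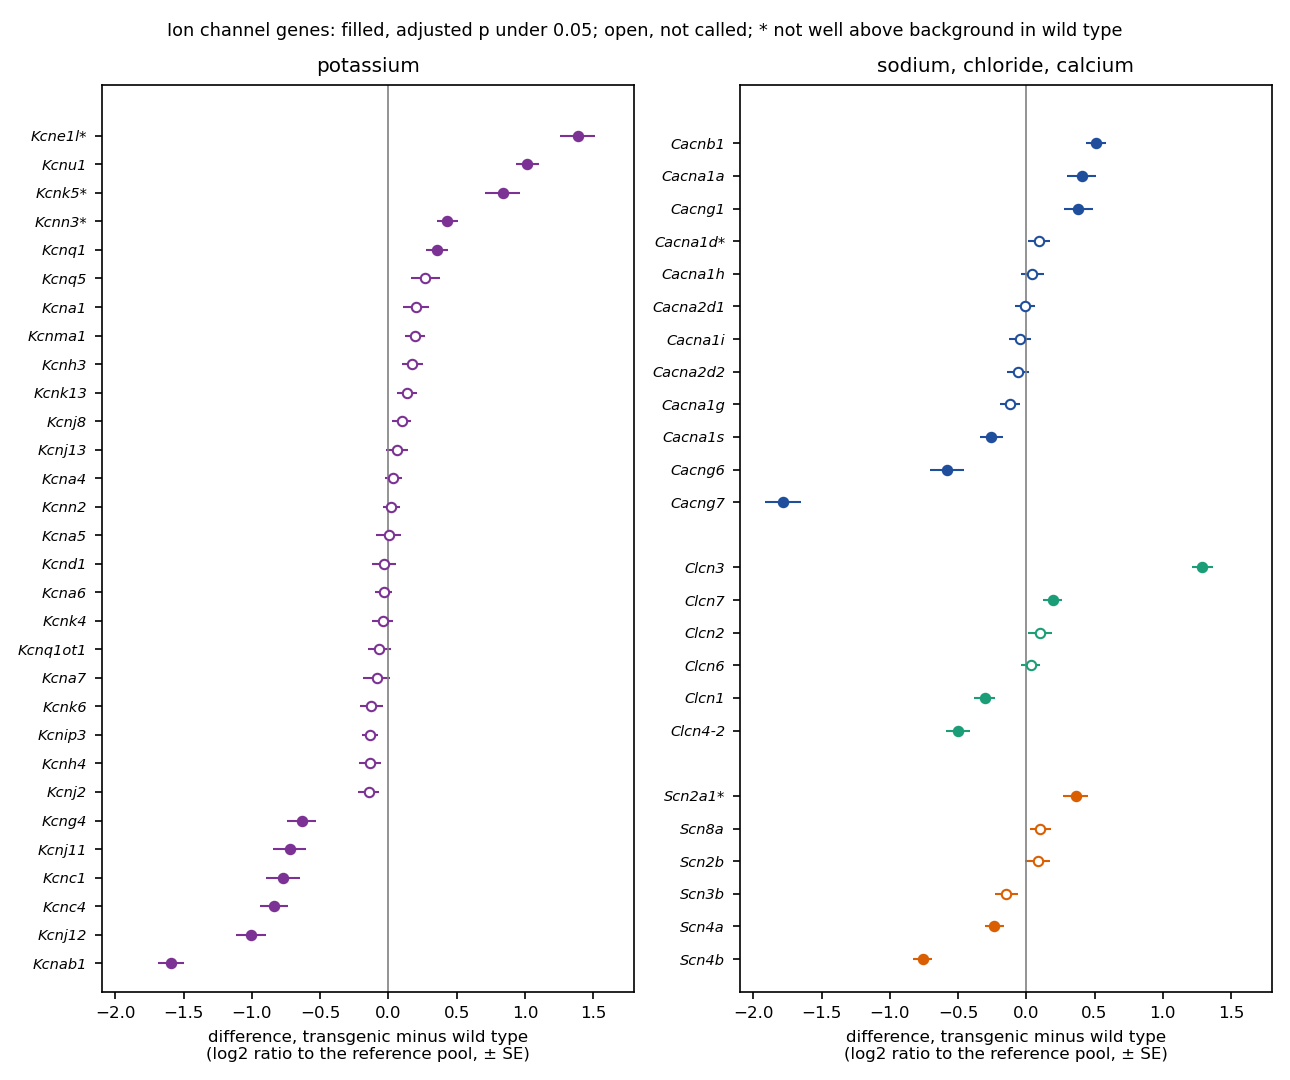
Difference between transgenic and wild-type muscle for 54 channel genes (log2 ratio, transgenic minus wild type), with standard errors, grouped and coloured by ion. Filled markers are genes that passed limma's threshold, open markers those that did not. Values run from -1.78 for Cacng7 to 1.39 for Kcne1l, and each ion class holds genes on both sides of 0.

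The scaling of the arrays changed how these counts split. With median centring in place of loess the median of all genes moved to 0.14, only 1303 genes passed instead of 5695, and 79.7% of those were higher in transgenic muscle instead of 51.1%. Of the channel genes, 7 were then higher and 4 lower. Higher were Clcn3, Cacnb1, Kcnu1, Kcne1l, Kcnk5, Kcnn3 and Kcnq1, and lower were Cacng7, Kcnab1, Kcnj12 and Kcng4. Relative to that shift of 0.14, the differences of the other genes that fell stayed negative, apart from Cacna1s, whose 0.16 lay at the shift itself. The other members of the adult fibre set that fell under loess, Scn4a, Clcn1, Kcnj11 and Kcnc4 among them, did not pass there, with values of -0.042, -0.10, -0.50 and -0.61. Nor did Scn4b (-0.46), Clcn4 (-0.24), Cacng6 (-0.36) and Kcnc1 (-0.53), or, among higher genes, Clcn7 (0.37), Cacng1 (0.66), Cacna1a (0.47) and Scn2a1 (0.34).

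Several genes, most of them dim, took other sizes with other background corrections. Agilent's own log ratio, turned to log2, gave 3.90 for Kcne1l, 2.85 for Kcnk5, 2.68 for Kcnu1, 1.70 for Kcnn3, 1.69 for Scn2a1, 0.93 for Kcnq1 and 0.90 for Cacna1a. On the lower side it gave -2.42 for Kcnab1 and -1.58 for Kcng4. With a normexp offset of 16 Kcnk5 stood at 1.30, Kcnn3 at 0.72 and Scn2a1 at 0.60. In the authors' value table Cacna1a (0.35) and Scn2a1 (0.34) did not pass. The directions of these genes were the same in each.

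**Figure D2:**
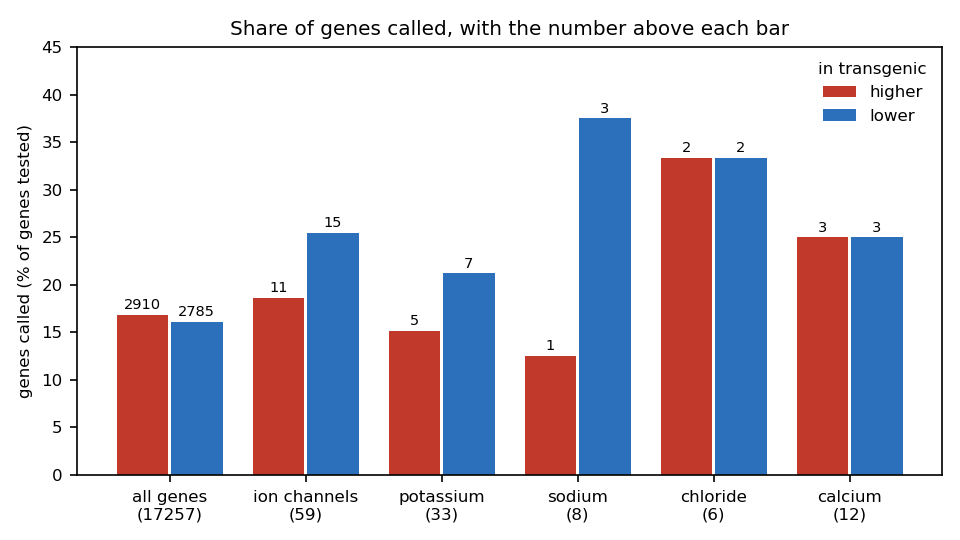
Share of genes that passed limma's threshold (percent of genes tested, axis from 0), higher and lower in transgenic muscle, for all 17257 genes, the 59 channel genes and the 4 ion classes, with the number of genes above each bar. Lower genes were 3 of 8 in the sodium class and 7 of 33 in the potassium class, while the chloride and calcium classes had as many higher as lower.

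The whole muscle holds other cells, and fewer cells of a type cannot be told apart from less RNA per cell. Of 10 fibre markers, all measured, Acta1 (-0.93), Myl1 (-1.01), Myh4 (-0.74) and Tnnt3 (-0.49) were lower and Myh1 (0.62) higher. The fibre list's mean ratio was 0.11 to 0.48 on wild-type and -0.17 to 0.037 on transgenic arrays, without overlap. Schwann cell markers, cells that like neurons express several of these channels, were higher for 4 of 7 measured genes and lower for 0, with list means of -0.51 to 0.024 and -0.062 to 0.31. Of 8 neuron markers, Nefl, Nefm and Syt1 were well above background on no array, and 2 of the 5 measured, Uchl1 (0.51) and Stmn2 (0.27), were higher. White adipocyte markers were higher for 6 of 7 and lower for Car3, with Lep well above background on no array and list means of -0.58 to 0.070 and -0.33 to 0.26. Red blood cell markers were higher for 3 of 4, with list means of -0.66 to -0.038 and -0.32 to 0.62. Endothelial markers gave 0 higher and 1 lower of 8, smooth muscle markers 1 and 0 of 7, satellite cell markers 0 and 1 of 4, fibroblast markers 2 and 0 of 7, leukocyte markers 0 and 1 of 6, lymphocyte markers 1 and 0 of 3 and brown adipocyte markers other than Ucp1 0 and 1 of 4. Under median centring 1 fibre marker was higher and 0 lower, 0 Schwann cell markers passed, and 4 white adipocyte markers were higher and 0 lower. Without the doubted array Sox10 of the Schwann list (0.29) and Cidea of the brown adipocyte list (1.27) passed as well. Over all genes 16.9% were higher and 16.1% lower, and 7.55% passed under median centring. The part of these cell types in the channel differences was not tested.

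Among sodium channels, 3 of the 8 genes (37.5%, against 16.1% of all genes) were lower in transgenic muscle, the pore of adult muscle among them. In the other direction, 1 pore gene of neurons was higher (12.5%, against 16.9% of all genes). None of these passed under median centring. Scn4a encodes the sodium pore of the adult fibre. Its ratio was -0.13 to 0.17 (median -0.088) on wild-type and -0.50 to -0.21 (median -0.29) on transgenic arrays (probe in mm9, chromosome 11, 106180635 to 106180694). The groups did not overlap, at a difference of -0.24 ± 0.068 (SE; adjusted p = 0.012), or 1.18-fold lower, and -0.25 without the array labelled wild type 4. Scn4b, a beta subunit that in neurons takes part in resurgent current, fell the most of this class. Its -0.079 to 0.28 (median 0.17) in wild type stood against -0.75 to -0.47 (median -0.62) in transgenic muscle, without overlap. The difference was -0.76 ± 0.070 (SE; adjusted p = 7.4e-08), 1.69-fold lower, and -0.75 without that array (probe on chromosome 9, 44962045 to 44962104).

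Scn2a1 (now Scn2a), a pore gene best known from brain neurons, was well above background on 6 of 7 transgenic arrays and on none of the wild-type arrays. It entered the set only through the transgenic group, which favoured a rise. With each wild-type array counted at its lowest well-measured signal or at the probe, whichever was higher, Scn2a1 was 1.24-fold higher. The difference was 0.36, and 0.36 without the doubted array. Such folds come from the Cy5 signal alone, with no dye swap, and are no strict lower limits. The transgenic mean held all 7 arrays. For Cacna1d, also measured on no wild-type array, the wild-type signals lay at or above that lowest signal. Scn3b, Scn2b and Scn8a did not pass, at -0.15, 0.085 and 0.10.

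The chloride class divided between Clcn3, which rose the most, and the surface channel Clcn1 with the exchanger Clcn4, which were lower, though not past the threshold under median centring. Clcn3 encodes an exchanger of chloride for protons in endosomes. It read -1.12 to -0.57 (median -0.73) in wild type and 0.44 to 0.56 (median 0.51) in transgenic muscle, where the SD over 7 mice was 0.042 against 0.21 over 6 wild-type mice. The groups lay far apart, at 1.29 ± 0.079 (SE; adjusted p = 2.3e-10) or 2.45-fold higher, and 1.30 without the array labelled wild type 4 (probe in mm9, chromosome 8, 63389279 to 63389338). Its other kept probe gave 1.14.

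Clcn1, the channel that carries most of the resting chloride conductance of the fibre, moved far less. Its values of -0.030 to 0.18 (median 0.042) in wild type and -0.47 to -0.047 (median -0.21) in transgenic muscle did not overlap. The difference was -0.30 ± 0.076 (SE; adjusted p = 0.0041), 1.23-fold lower, and -0.30 without that array (probe on chromosome 6, 42264558 to 42264617). Clcn4, listed on the array under its older name Clcn4-2, is an endosomal exchanger like Clcn3 but went the other way. It read -0.11 to 0.36 (median 0.17) in wild type against -0.68 to -0.11 (median -0.35), again without overlap, with a difference of -0.50 ± 0.088 (SE; adjusted p = 2.0e-04) and -0.53 without the doubted array.

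Clcn7, the exchanger of lysosomes, passed narrowly at 0.19 ± 0.071 (SE; adjusted p = 0.041) with overlapping groups, -0.33 to -0.076 (median -0.15) in wild type and -0.20 to 0.18 (median 0.042) in transgenic muscle. It did not pass when wild type 1, 2, 3, 4 or 6 or transgenic 2, 3, 5 or 6 was left out, with values from 0.16 without wild type 6 to 0.20 without wild type 2 and 0.19 without the doubted array, nor without a filter on dim probes. Clcn2 and Clcn6 did not pass, at 0.10 and 0.031.

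**Figure D3:**
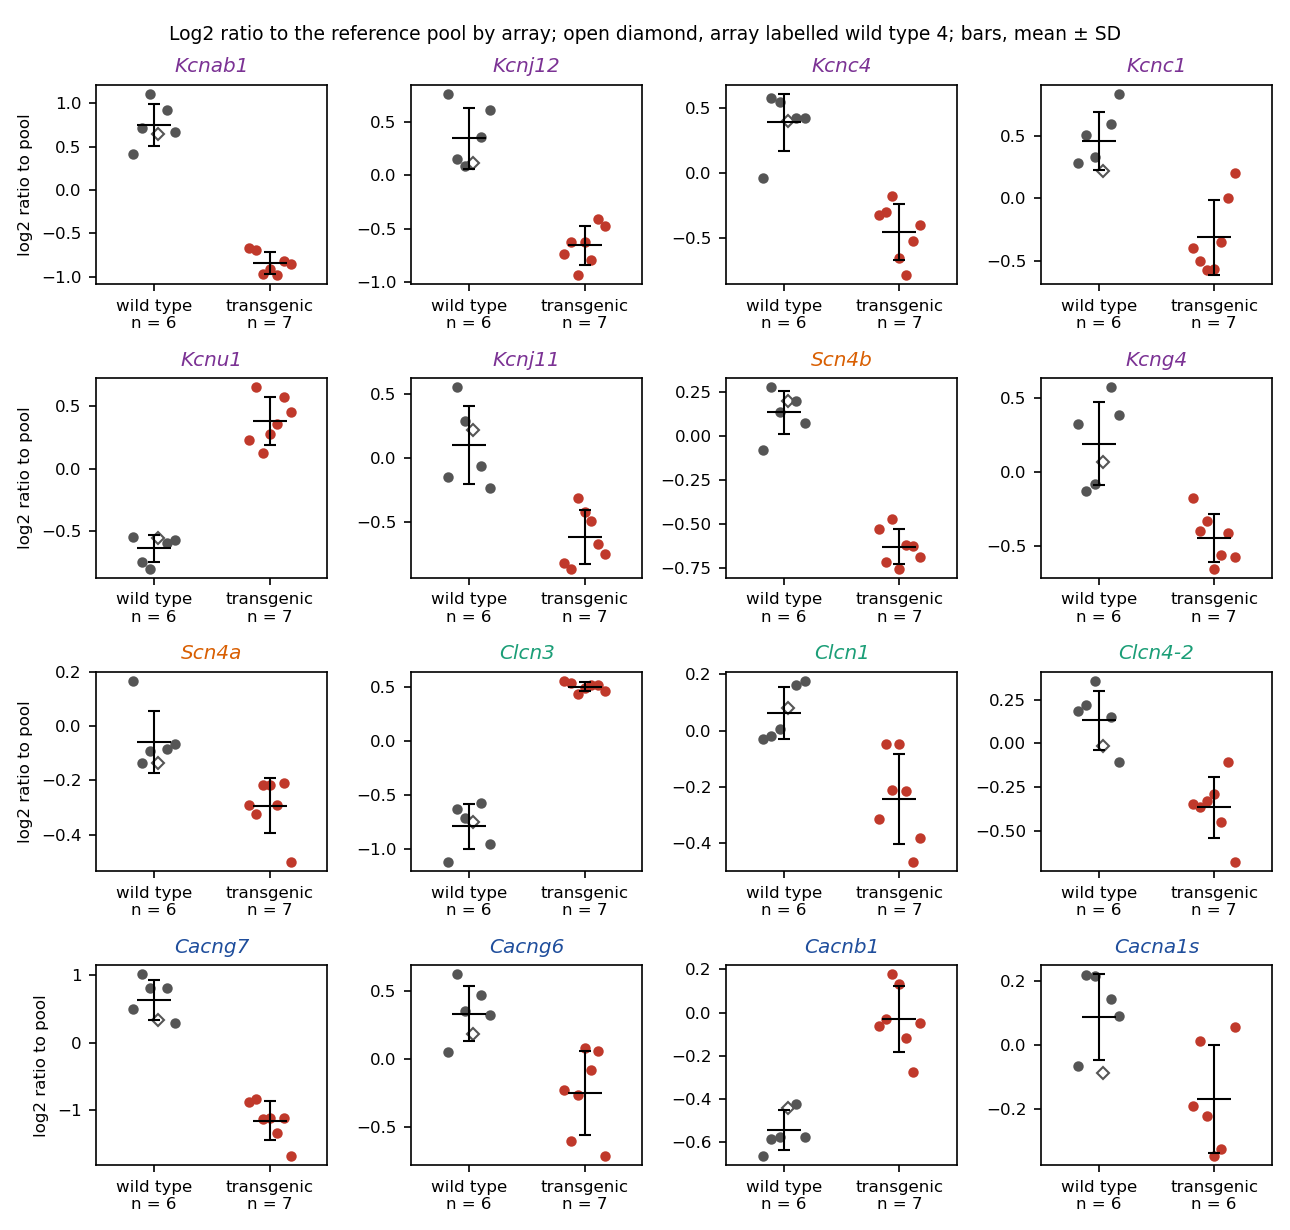
Log2 ratio to the reference pool of 16 channel genes in each mouse, wild type beside transgenic, with group mean and SD as bars and the array labelled wild type 4 marked. Clcn3 lies higher and Kcnab1, Cacng7 and Kcnj12 lower on all 7 transgenic arrays, while the groups overlap for Cacna1s and Cacng6.

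In the calcium class the voltage sensor moved little, while genes of accessory subunits moved in both directions. Cacna1s, the tubule channel that senses voltage for calcium release, read -0.087 to 0.22 (median 0.12) in wild type and -0.35 to 0.058 (median -0.21) in 6 transgenic arrays, 1 spot having been dropped as an outlier on transgenic 6. The groups overlapped, and the difference of -0.26 ± 0.085 (SE; adjusted p = 0.027) was -0.29 without the array labelled wild type 4. It did not pass when wild type 2, 3 or 5 or transgenic 3, 4 or 5 was left out (-0.23, -0.23, -0.24, -0.25, -0.22 and -0.23). Its other probe, at -0.13, did not pass either. The call was also lost under Agilent's log ratio (-0.17), an offset of 16 (-0.23), Cy5 alone (-0.21), the slide as a fixed block (-0.19) and in the authors' value table (-0.084).

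Cacnb1, the beta subunit that carries Cacna1s to the tubules, was higher. Its wild-type values of -0.66 to -0.42 (median -0.57) lay below all transgenic values, -0.28 to 0.18 (median -0.046). The difference was 0.51 ± 0.074 (SE; adjusted p = 2.5e-05), 1.43-fold, and 0.53 without the doubted array (probe on chromosome 11, 97866536 to 97866595). Cacng1, the gamma subunit of the same muscle channel, was also higher, -0.10 to 0.43 (median 0.088) against -0.57 to -0.059 (median -0.16) in wild type. With overlapping groups the difference was 0.38 ± 0.11 (SE; adjusted p = 0.0084), and 0.36 without that array.

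Of all channel genes, the gamma subunit gene Cacng7 showed the lowest difference. It read 0.29 to 1.01 (median 0.65) in wild type and -1.68 to -0.83 (median -1.12) in transgenic muscle, with no overlap (probe in mm9, chromosome 7, 3367751 to 3367810). The difference was -1.78 ± 0.13 (SE; adjusted p = 3.7e-09), 3.43-fold lower, and -1.84 without the array labelled wild type 4. In brain its protein is known as a partner of glutamate receptors. Cacng6, a gamma subunit of skeletal muscle, has its probe on the same chromosome at 3435518 to 3435577. It read 0.052 to 0.62 (median 0.34) against -0.71 to 0.081 (median -0.23), with 5 of 7 transgenic arrays below all wild-type arrays and a difference of -0.58 ± 0.12 (SE; adjusted p = 0.0011), -0.61 without that array.

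Cacna1a, a pore gene of presynaptic terminals, was higher by 0.41 ± 0.11 (SE; adjusted p = 0.0059), 0.41 without the doubted array, on -0.53 to -0.079 (median -0.22) in wild type and -0.26 to 0.46 (median 0.16) in transgenic muscle. The other 6 calcium genes did not pass. Cacna2d1, the alpha2delta subunit of the muscle channel, differed by -0.0094 ± 0.076 (SE; adjusted p = 0.94), with wild-type values of -0.34 to -0.018 (median -0.22) and transgenic values of -0.33 to 0.028 (median -0.22). Cacna2d2 gave -0.060, and the low-threshold pores Cacna1g, Cacna1h and Cacna1i gave -0.12, 0.045 and -0.046. Cacna1g passed, lower, with Agilent's log ratio (-0.54) and in the authors' value table (-0.32). Cacna1d was well above background on no wild-type and 6 transgenic arrays, so it entered the set only through the transgenic group. Its difference was 0.097, which is no sound test of a change.

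Potassium channels formed the largest class. Of 33 genes, 5 were higher (15.2%, against 16.9% of all genes), 7 lower (21.2%, against 16.1%) and 21 did not pass, and 4 differed by at least 1. The 36.4% that passed lay near the 33.0% of all genes. The voltage-gated pores gave 1 higher and 4 lower of 16 tested, the inward rectifiers 0 and 2 of 5, the channels gated by calcium or sodium 2 and 0 of 4, and the leak channels 1 and 0 of 4.

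Kcnab1, a cytoplasmic beta subunit that speeds the inactivation of voltage-gated potassium pores, had the lowest difference of the class. It read 0.41 to 1.11 (median 0.69) in wild type and -0.98 to -0.67 (median -0.86) in transgenic muscle, without overlap. Its probe lies in mm9 on chromosome 3, 65181718 to 65181777, and the difference was -1.59 ± 0.094 (SE; adjusted p = 1.3e-10), 3.01-fold lower and -1.61 without the array labelled wild type 4. The Kcnab1 promoter printed above is the one that holds the ATF4 and C/EBP letters.

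Kcnc4 and Kcnc1 encode pores that repolarise fast-firing cells, and both were lower. Kcnc4, known from muscle fibres, read -0.039 to 0.58 (median 0.42) in wild type and -0.78 to -0.17 (median -0.40) in transgenic muscle. Even its lowest wild-type array, wild type 1, stood above all transgenic arrays, and the difference was -0.84 ± 0.11 (SE; adjusted p = 4.5e-06), -0.84 without the doubted array (probe on chromosome 3, 107241564 to 107241623). Kcnc1 had 3 kept probes that all passed, at -0.77, -0.57 and -0.58. Its brightest probe gave 0.22 to 0.84 (median 0.42) in wild type and -0.58 to 0.20 (median -0.40) in transgenic muscle, without overlap (SE 0.13, adjusted p = 8.6e-05, limma; -0.82 without that array). Kcng4, a silent subunit that modifies Kv2 pores, was lower at -0.64 ± 0.11 (SE; adjusted p = 1.3e-04) and -0.66 without that array, its wild-type -0.13 to 0.57 (median 0.20) not overlapping the transgenic -0.65 to -0.18 (median -0.42). Its probe was well above background on 6 wild-type but only 4 transgenic arrays, so the background limits the size of this fall.

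Inward rectifiers hold the resting potential and clear potassium from the tubules. Kcnj12 was lower, at 0.087 to 0.77 (median 0.26) in wild type and -0.94 to -0.41 (median -0.62) in transgenic muscle. No arrays overlapped, the difference was -1.01 ± 0.11 (SE; adjusted p = 9.6e-07) or 2.01-fold lower, and it was -1.05 without the array labelled wild type 4 (probe in mm9, chromosome 11, 60884556 to 60884615). Kcnj2, a channel of the same subfamily, read 0.025 to 0.30 (median 0.10) and -0.21 to 0.22 (median -0.047) and did not pass, at -0.14 ± 0.078 (SE; adjusted p = 0.17), but passed at -0.32 in the authors' value table. Kcnj11, the pore of the ATP-sensitive potassium channel that closes when ATP is plentiful, was lower. Its -0.24 to 0.56 (median 0.082) in wild type and -0.87 to -0.31 (median -0.67) in transgenic muscle did not overlap, at -0.72 ± 0.12 (SE; adjusted p = 1.1e-04), -0.70 without the doubted array and -0.34 on the other kept probe (probe on chromosome 7, 53353119 to 53353178). That other probe of Kcnj11 was well above background on 6 wild-type but only 4 transgenic arrays, so the background limits the size of its fall. Kcnj8, the other pore gene of ATP-sensitive channels, differed by 0.097 and Kcnj13 by 0.064, and neither passed.

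The potassium genes that rose lie mostly close to the background. Kcne1l (now Kcne5), a small accessory subunit, was well above background on all 7 transgenic and no wild-type arrays. Its ratios of -1.05 to -0.64 (median -0.80) in wild type and 0.13 to 1.15 (median 0.54) in transgenic muscle did not overlap, and the difference was 1.39, 1.40 without the doubted array. By the reckoning used for Scn2a1 it was 2.41-fold higher in transgenic muscle, yet its second probe, well above background on all 13 arrays, gave 0.15. That probe did not pass. Kcnk5, a leak channel sensitive to pH and known from kidney, showed the same pattern of detection. It read -0.70 to -0.42 (median -0.61) and -0.27 to 0.76 (median 0.22), without overlap, a difference of 0.84, 0.83 without the doubted array. By that reckoning Kcnk5 was 1.76-fold higher. Kcnn3, the small-conductance calcium-activated channel that denervated muscle is known to regain, was well above background on 6 transgenic arrays. Its difference was 0.43, 0.41 without the doubted array, and by that reckoning it was 1.22-fold higher, again over no measurable wild-type array. Kcnk5 and Kcnn3 entered the set only through the transgenic group, and Kcne1l by this probe only.

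Kcnu1, known as the large-conductance potassium channel of sperm, was well above background on 2 wild-type and 7 transgenic arrays. It passed the filter through the transgenic group, which favoured a rise. It read -0.80 to -0.55 (median -0.58) in wild type and 0.13 to 0.65 (median 0.36) in transgenic muscle, without overlap, a difference of 1.02 ± 0.084 (SE; adjusted p = 1.7e-08) and 1.03 without the array labelled wild type 4 (probe in mm9, chromosome 8, 27048346 to 27048405). Kcnq1, a voltage-gated pore known from heart and epithelia, read -0.40 to -0.019 (median -0.21) against -0.12 to 0.34 (median 0.12). With overlapping groups it was higher by 0.35 ± 0.081 (SE; adjusted p = 0.002), and 0.36 without that array. The other kept probe of Kcnq1 gave 0.37 but overlaps the first in position. It was well above background on 7 transgenic and 0 wild-type arrays. That probe passed the filter only through the transgenic group and is no independent support. The antisense RNA of Kcnq1, Kcnq1ot1, listed apart, differed by -0.067 and did not pass.

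Other potassium genes of the fibre did not pass. Kcnma1, the large-conductance calcium-activated channel, read -0.21 to 0.27 (median 0.018) and 0.082 to 0.32 (median 0.28), at 0.19 ± 0.075 (SE; adjusted p = 0.055). It passed, higher, when wild type 3 (0.24), transgenic 4 (0.22) or transgenic 6 (0.21) was left out, and with the slide as a fixed (0.22) or random block (0.20). Kcna7, a pore of muscle and heart, read -0.41 to 0.20 (median -0.055) and -0.43 to 0.028 (median -0.19) and gave -0.087 ± 0.099 (SE; adjusted p = 0.55), but passed, lower, with Agilent's log ratio (-0.21). Of the other voltage-gated pores, Kcnq5 (0.27), Kcna1 (0.20), Kcnh3 (0.17) and Kcnh4 (-0.14) lay outside, and Kcna4, Kcna5, Kcna6 and Kcnd1 within, 0.10 of 0. Kcnq5 passed, higher, with the slide as a fixed (0.32) or random block (0.29), with Agilent's log ratio (0.73), in Cy5 alone (0.27) and without wild type 6 (0.31) or transgenic 2 (0.30), 4 (0.31) or 5 (0.31). Kcnh3 passed without wild type 5 (0.22) and Kcna1 without transgenic 1 (0.26). Kcnd1 passed with Agilent's log ratio (-0.26). The accessory gene Kcnip3 gave -0.14, and passed, lower, with Agilent's log ratio (-0.35), an offset of 16 (-0.19) and in the authors' value table (-0.30). The leak channels Kcnk4, Kcnk6 and Kcnk13 gave -0.043, -0.13 and 0.14, and the small-conductance channel Kcnn2 gave 0.022.

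**Figure D4:**
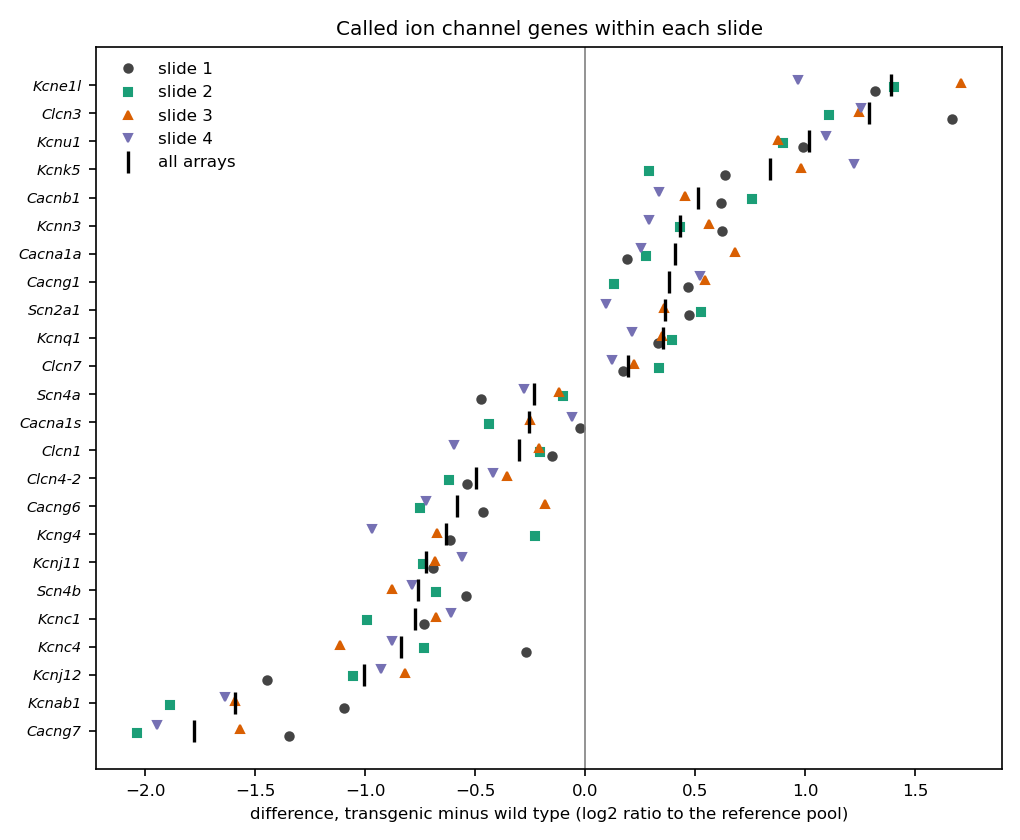
Difference between transgenic and wild-type arrays (log2 ratio) within each of the 4 slides for 24 of the channel genes that passed, with the value over all arrays as a black bar. Points of a gene lie on 1 side of 0 in every slide, and Cacna1s comes closest to 0.

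The filter kept members unequally. Of the 59, 41 were well above background on all 13 arrays and 18 on 6 to 12. By their brightest probe, 17 of the 41 passed, 13 lower and 4 higher, where 36.7% of all 14367 genes passed when only such probes were kept. So 7 of the 11 higher genes rest on probes that some arrays did not measure. Just inside the filter were Kcnk5 on 7 arrays and Cacna1d, Kcnn3 and Scn2a1 on 6. Just outside, on 5 arrays, were Cacna2d4 (-0.50, on 5 wild-type and no transgenic arrays), Kcne3 (-0.014) and Kcnk3 (0.097). Of the 85 genes outside the set, 64 were well above background on no array. With every kept probe tested alone, 13 of 77 were higher and 18 lower (31.8% of all probes passed), and of the 16 genes with several kept probes none had probes that passed in opposite directions.

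Channels work with release, pumping and anchoring proteins, listed apart. Over all genes 16.9% were higher and 16.1% lower, and 7.55% passed under median centring. Of 14 measured genes of calcium release from the sarcoplasmic reticulum and its junction, 8 were lower and 2 higher (1 and 0 under median centring), with a median of -0.26 (0.029 there). Itpr1, the inositol trisphosphate receptor, read 0.52 to 1.14 (median 0.89) in wild type and -1.75 to -1.25 (median -1.60) in transgenic muscle, at -2.42 ± 0.096 (SE; adjusted p = 3.9e-13) and -2.40 without the array labelled wild type 4. Asph, whose locus also encodes junctin and junctate, and Stac3, which tethers Cacna1s for voltage sensing, gave -1.01 ± 0.081 (SE; adjusted p = 1.0e-08) and -0.77 ± 0.074 (SE; adjusted p = 1.3e-07), and did not pass under median centring (-0.73 and -0.47). Mtmr14, a lipid phosphatase, and the receptor gene Itpr3 were higher, at 0.28 and 0.17, but Mtmr14 did not pass as the mean over its probes (0.14), nor Itpr3 in Cy5 alone (0.16), and neither under median centring (0.49 and 0.35). Itpr3 did not pass without wild type 1, 2 or 5 or transgenic 3, 5 or 6, at 0.14 to 0.17.

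Of 14 genes of calcium uptake, storage and buffering, 4 were lower and 2 higher, median -0.079 (0 and 2 under median centring, median 0.18). Of all genes 16.1% were lower and 16.9% higher. The fast-fibre buffer Pvalb and store protein Casq1 were lower, at -0.91 ± 0.12 (SE; adjusted p = 5.1e-06) and -0.90 ± 0.097 (SE; adjusted p = 6.6e-07), as was the surface calcium pump Atp2b1 at -0.36. None of these 3 passed under median centring (-0.50, -0.60 and -0.16). The reticulum pump of slow fibres and heart, Atp2a2, was higher at 0.79 ± 0.13 (SE; adjusted p = 7.9e-05), as was Casq2, the store protein of the same tissues, at 0.72 ± 0.12 (SE; adjusted p = 8.2e-05). Among 10 genes of the sodium-potassium pump, which restores the gradients, 5 were lower and 2 higher, median -0.19 (0 and 2 under median centring, median 0.0078). The beta subunit Atp1b2 (-0.45) and the regulators Fxyd1 (-0.35) and Fxyd5 (-0.28) were lower, and the beta subunit Atp1b1 and its relative Atp1b4 were higher at 0.84 ± 0.11 (SE; adjusted p = 4.3e-06) and 1.40 ± 0.13 (SE; adjusted p = 8.4e-08). Under median centring Atp1b2, Fxyd1 and Fxyd5 stood at -0.15, -0.0058 and -0.080 and did not pass. Fxyd1 did not pass in the authors' value table (-0.22). Fxyd5 did not pass with Agilent's log ratio (-0.30), nor without wild type 5 or 6 or transgenic 5, at -0.24, -0.24 and -0.26.

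Of 13 genes of the neuromuscular junction, 6 were higher and 1 lower, median 0.19 (5 and 0 under median centring, median 0.31). Chrna1, the alpha subunit of the acetylcholine receptor, read -0.87 to -0.24 (median -0.66) in wild type and 0.25 to 0.92 (median 0.33) in transgenic muscle, at 1.03 ± 0.12 (SE; adjusted p = 1.3e-06). The regulator Myog gave 1.39 ± 0.094 (SE; adjusted p = 8.3e-10), Etv5, a transcription factor of synaptic nuclei, 0.81 ± 0.088 (SE; adjusted p = 7.3e-07), and Dok7, the adaptor of the junction's kinase, -0.34 ± 0.10 (SE; adjusted p = 0.013), which did not pass under median centring (-0.11). Of 11 channel anchors and partners, 4 were lower and 1 higher, median -0.18 (0 and 0 under median centring, median 0.063). The caveolin Cav3 (-0.52), the ankyrin Ank1 (-0.44) and Abcc8 (-0.31), a sulfonylurea receptor that joins Kcnj11 in ATP-sensitive channels, were lower. Under median centring they stood at -0.23, -0.17 and -0.14 and did not pass. Ank3, at 0.20, was higher, but did not pass in Cy5 alone (0.060), as the mean over its probes (0.11), under median centring (0.36) or without wild type 2, 4 or 6 (0.18, 0.19 and 0.19). Of 13 genes of other chloride channel families, Ttyh1 (-0.54) and Ttyh2 (-0.62) were lower and Clic4 (0.85) higher, median -0.083 (1 and 1 under median centring, median 0.061). Beside these medians stand the -0.0010 of all genes and the all-gene shift of 0.14 under median centring. Beside the counts stand 16.9% of all genes higher and 16.1% lower, and 7.55% that passed under median centring. Without the doubted array the calls of the list genes stood, except Ank3 and Rapsn, the receptor-clustering protein of the junction, which then passed at -0.21.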

How the data were processed

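RNA of 13 mice was measured on 2-colour Agilent arrays, from 200 ng of total RNA per mouse. The deposited scanner files hold linear spot and background intensity of both channels, flags with other values, and a log10 ratio, per the file headers. The submitters' processing notes name Agilent Feature Extraction 10.5.1.1. The authors' value table of 25583 rows was taken as log2 Cy5 intensity. Its columns correlated with the log2 Cy5 signal of their arrays at 0.996 to 0.999 and each had a median of 7.58, and its normalization is not given in the sources used here.

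Mean signals were background-corrected by normexp (offset 50) and normalized by loess within arrays with limma 3.58.1 in R 4.3.3. Control and outlier spots (278 to 377 per array) were left out, and no spot was saturated. The brightest probe whose Cy5 signal was flagged well above background on 6 or more arrays stood for each gene. lmFit and eBayes compared 7 with 6 arrays, two-sided, with Benjamini-Hochberg adjustment over 17257 genes. Errors of differences are standard errors of that fit. The number of arrays limits the precision, and mice were counted as replicates since the labels call the samples individual. For the fold of genes that no wild-type array measured, Cy5 signals were scaled with Aquantile after loess. Transgenic means were set against the wild-type mean in which each array counted with its lowest well-measured signal or with the probe, whichever was higher. Probe coordinates are mm9 (NCBI37), per the file headers, and the place of probes within transcripts was not analysed here. Of 59 names, 54 were matched by accession and 5 by symbol to the GRCm38.p6 table. Scripts were tested on simulated data. Counts cover all members, but the values of a few genes are not reported here.

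Named genes were 16 channels of the adult fibre whatever their values, the called members with the largest change by ion and direction (up to 8 for potassium, 4 for the others), members with probes called in opposite directions, members unmeasured in 1 group, and the 3 most changed called genes per direction of each pathway list. Members, lists and rules were chosen with earlier results of these data known. A slide is a physical slide and its scan. Same-numbered mice did not deviate together, with correlations of -0.23 to 0.23 over 6 pairs.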

Additional observations from a re-analysis of the deposited data

Results flagged for a closer look

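Of 118 groups of arrays examined for a single array standing far from the others of its group, 8 (6.78%) held one, where chance gives about 1 in 20. Scn4a had such an array in both groups: wild type 1 read 0.17, the other wild-type arrays -0.13 to -0.067, and transgenic 7 read -0.50, the other transgenic arrays -0.32 to -0.21. Kcnc4 read -0.039 on wild type 1, below the 0.40 to 0.58 of the other wild-type arrays. Clcn7 read -0.33 on wild type 6, against -0.16 to -0.076. Among genes of the pathway lists, Asph read -1.01 on transgenic 7 (others -0.73 to -0.57), Pvalb -0.84 on transgenic 5 (others -0.29 to -0.011), Fxyd1 0.55 on wild type 6 (others 0.032 to 0.19) and Ank1 -0.23 on wild type 2 (others 0.037 to 0.17).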

How the results depend on the processing

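Of the main counts of 11 higher and 15 lower channel genes, the lower count moved most with the scaling and the higher count with the filter. Median centring without loess gave 7 higher and 4 lower, with 0 higher and 0 lower sodium, 1 and 0 chloride, 1 and 1 calcium genes and 3 lower potassium genes, and turned Cacna1s to 0.16. In the authors' value table no sodium gene was higher (0). Without a filter 9 potassium genes were higher, 1 chloride gene was higher and 5 calcium genes were lower, and with a filter on all 13 arrays 4 channel genes were higher, with 0 potassium and 0 sodium. These 2 fits tested 144 and 42 channel genes in place of 59, and 15.7% and 36.7% of all genes passed in them. Under median centring 7.55% of all genes passed. All other counts were within 1.5 times of the main ones under Agilent's log ratio, an offset of 16, Cy5 alone and the slide as a block. Leaving out 1 array gave 10 to 13 higher and 14 to 15 lower channel genes, and 1 to 2 higher chloride genes. The fit with the replicate number as a block gave 11 higher and 15 lower, and 5369 genes in all, although 0 wild-type arrays correlated best with their own number. That fit ended the calls of Itpr3 (0.18) and Ank3 (0.19). Within slides, Abcc8 turned to 0.12 on slide 1 and Ttyh1 to 0.041 on slide 3. The cause of these changes was not tested. Signal over background limits Kcnk5, Kcnn3, Scn2a1, Cacna1d and the brightest probe of Kcne1l, which no wild-type array measured. It also limits Kcng4 and the second probe of Kcnj11, each well above background on 4 of 7 transgenic arrays. Kcnu1, well above background on 2 wild-type arrays, is limited as well.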
